A study of Mus musculus with 8 samples.

Results

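The genes of 9 transcription factors of the B lineage, *Pax5*, *Ebf1*, *Pou2af1*, *Pou2f2*, *Spib*, *Bcl11a*, *Ikzf3*, *Irf8* and *Tcf3*, were examined for DNA methylation in B cells and T cells. They were taken by name, each as its gene body with 20 kb on either side, among 21599 protein-coding genes whose windows held measured regions. Methylation of CpG sites had been read genome-wide by whole-genome oxidative bisulfite sequencing (WGoxBS), which oxidizes the DNA before bisulfite so that 5-methylcytosine (5mC) is read as methylated and 5-hydroxymethylcytosine is not. Cells came from the spleens of C57BL/6J mice aged 6 to 8 weeks, sorted either as resting CD43- B cells or as naive CD4+ T cells (CD62Lhi, CD44lo, CD25-), and each replicate pooled cells of several animals. The labels list 8 samples in 4 groups, sexes and cell types crossed (female B, male B, female T, male T). Since the pair of samples in a group refers to 1 file, each group was handled as 1 library, and no value below has a standard deviation. Whether such a file holds 1 sample or both joined is not given in the labels. Each cell type therefore had 2 libraries, which also differ in sex. The main p-values rest on 1 spread among the 4 libraries that all regions share, and not on the spread of each region. They cover no spread beyond these 4 libraries.

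B cells arise through a cascade of these factors. E2A, the product of *Tcf3*, and EBF1 open the early B cell program, and PAX5 then commits the cell to the lineage and holds back the genes of other lineages. OCT2 (*Pou2f2*) and its coactivator OBF-1 (*Pou2af1*) act on the octamer element of immunoglobulin genes, and SPI-B and IRF8 bind composite elements of the ETS and IRF type. BCL11A is needed early in the lineage, whereas Aiolos (*Ikzf3*) is an Ikaros family protein that T cells use as well. Methylation is usually high across gene bodies and low at CpG-rich promoters and at active enhancers.

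Reads at CpGs numbered from 280919817 to 354634149 per library, with a median of 14 to 17 reads at an autosomal CpG. Mitochondrial CpGs were read as 0.271% and 0.727% methylated in female and male B cells, and as 0.0733% and 0.0709% in female and male T cells. The part of this in small differences between very low levels, such as that of the *Ikzf3* promoter, was not tested. In the 9 windows, 15991 CpGs were listed in all 4 libraries. The promoters of B cell markers were called lower in B cells for 5 of 5 genes, and those of T cell markers higher in B cells for 7 of 7. Promoters of CD8 T cell markers were called higher in B cells for 2 of 2, at 29.2% to 57.2% in the T libraries and 84.7% to 91.6% in the B libraries. Of the promoters of markers of myeloid cells and of NK cells, 0 of 5 and 0 of 3 were called by edgeR or by limma, with 2 and 1 at an unadjusted p under 0.05. Those 3 also passed the adjusted p of edgeR without reaching 20 points, *Lyz2* at -16.8 points (0.000922), *Itgam* at +13.0 (0.00226) and *Prf1* at +12.8 (0.00746). The part of such cells in the results below was not tested. The background of these calls is given with the promoters.

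Methylation was summed over tiles of 1 kb and compared with a quasi-likelihood test of edgeR. A tile was called at a Benjamini-Hochberg adjusted p under 0.05 over all tiles of the genome when the cell type means were also 20 or more percentage points apart. Of 1150 tested tiles in the 9 windows, 93 were called lower in B cells, or 8.09%, beside 0.812% of all tiles. Another 40 were called higher in B cells, or 3.48%, beside 2.36% of all tiles. With limma in place of edgeR 65 were lower (5.65% beside 0.444% of all tiles) and 18 higher (1.57% beside 1.56%). The share lower in B cells thus stood well above its background, and the share higher in B cells lay near its own. Over all 1150 tested tiles the 2 B libraries differed by a median of 2.43 points and the 2 T libraries by 2.27, and the B and T means by 3.73. In the called tiles, which were chosen for a difference of at least 20 points, these medians were 3.45, 2.83 and 34.0. The 2 B libraries did not overlap the 2 T libraries in 133 of 133 called tiles, a separation that the call itself favors. They did not overlap in 578 of 1017 tiles not called (56.8%). That share was not taken over all tiles of the genome, so it has no background here. The reads limited a called tile's level to a median of ±7.03 points (95% Wilson interval, the widest of the 4 libraries), and at most ±12.5. Reads carry no molecular identifiers, so these intervals cover counting error only.

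**Figure D1:**
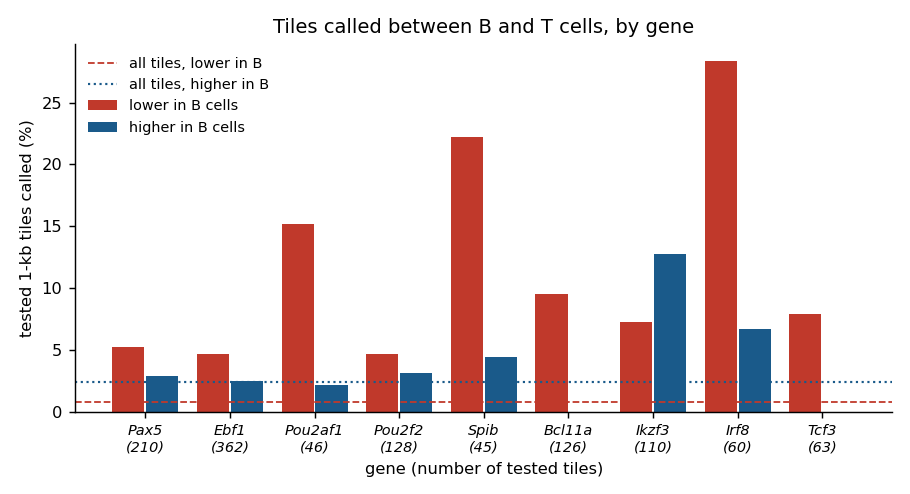
Share of tested 1-kb tiles (y axis, percent) called lower (red bars) or higher (blue bars) in B cells in the window of each gene (x axis, with the number of tested tiles), and the same shares over all tiles of the genome as dashed and dotted lines. *Irf8* (28.3%) and *Spib* (22.2%) have the tallest bars lower in B cells, and *Ikzf3* is the gene with more tiles higher (12.7%) than lower (7.27%).

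The 9 windows differed widely in how much of them was lower in B cells. In *Irf8* 17 of 60 tiles were, or 28.3%, which placed it at rank 4 of 19126 protein-coding genes with at least 20 tested tiles. *Spib* followed with 10 of 45 (22.2%, rank 14) and *Pou2af1* with 7 of 46 (15.2%, rank 45). The other genes had smaller shares, from *Bcl11a* with 12 of 126 (9.52%) to *Pou2f2* with 6 of 128 (4.69%). *Bcl11a* and *Tcf3* had no tile called higher in B cells by edgeR or limma, 0 of 126 and 0 of 63, with 11 and 7 such tiles at an unadjusted p under 0.05. *Tcf3* had 5 of 63 tiles lower (7.94%, beside 0.812% of all tiles). *Irf8* and *Pou2f2* had 4 higher tiles each, of 60 (6.67%) and of 128 (3.1%), beside 2.36% of all tiles. Only *Ikzf3* among the 9 had more tiles higher (14 of 110) than lower (8 of 110) in B cells. In tiles called lower the levels were intermediate to low in B cells, with medians of 36.4% in the female and 40.2% in the male library, and high in T cells at 84.5% and 84.4%.

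Other factors of the B lineage had more tiles higher than lower in B cells, although their share of lower tiles also stood above the background. A list of 30 further factors that act in the B lineage had 102 of 3391 tiles lower (3.01%, beside 0.812% of all tiles) and 618 higher (18.2%, beside 2.36%). With limma 55 were lower (1.62% beside 0.444%) and 482 higher (14.2% beside 1.56%). At least 1 tile lower by edgeR was found in 26 of the 30, beside 6250 of 21599 protein-coding genes (28.9%). The windows were of unlike size, with 3391 tested tiles over the 30 genes and 1390021 over the 21599, so these 2 counts are not on a par. *Mef2c* had 13 lower and 1 higher. By share of tiles called higher *Ets1* (65 of 142) and *Ikzf1* (43 of 94) came first, followed by *Stat5a* (22 of 60) and *Foxo1* (39 of 109). Many of those factors also act in T cells. A list of 13 T lineage factors had 6 of 1258 tiles lower (0.477%) and 408 higher (32.4%), with the largest shares in *Tcf7*, *Satb1*, *Lef1* and *Bcl11b*. More tiles lower than higher were found in 8 of the 9 genes examined here, in 4 of the 30 and in 0 of the 13. Among all 21599 protein-coding genes this held for 2864, and 8539 had more tiles higher than lower. These are counts without a test, since the lists were chosen with results of these data known.

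Within the genes the calls lay mostly away from the gene start, although the share was largest close to it. Promoter tiles were lower in B cells in 6 of 26 cases (23.1%), tiles with an exon in 17 of 130 (13.1%) and intronic tiles in 54 of 689 (7.84%). The flanks had 9 of 152 upstream (5.92%) and 7 of 153 downstream (4.58%). Over all protein-coding genes the same 5 shares ran from 0.735% to 1.05%, with promoter tiles the lowest. The promoter tiles called came from 3 genes, *Pou2af1*, *Spib* and *Irf8*. Of the 26, 0 were called higher in B cells by edgeR or limma, with 5 at an unadjusted p under 0.05. Over all protein-coding genes edgeR called 1236 of 54427 promoter tiles higher (2.27%), so 0 of 26 says little.

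*Tcf3* (chr10:80409514-80433647, minus strand) encodes the E proteins E12 and E47, which are used by T cells too. Its promoter (1 kb upstream to 1 kb downstream of the start) had 3.32% and 2.99% methylation in female and male B cells and 1.89% and 2.12% in female and male T cells, and the difference of 1.15 points was not called. The gene differed a little further in. The tile chr10:80430001-80431000 had 4.29% and 2.11% in B cells but 77.0% and 79.4% in T cells, a difference of -75.0 points (edgeR adjusted p = 1.83e-70). Together with its neighbors it formed 3 called tiles in a row, and both B libraries were below both T libraries in each. A second transcript start lies there, at position 80431082, 2565 bases into the gene, and it serves the transcript Tcf3-203 among others. The 1 kb around it was methylated to 18.1% and 18.3% in B cells and to 76.0% and 71.2% in T cells. Part of the region, with every CG in capitals, reads on the gene's strand (GRCm38 reference of RefSeq, chr10:80429475-80429765, intron 2, counted here and below along the lowest-numbered transcript of each gene):
Tcf3 lower in B cells: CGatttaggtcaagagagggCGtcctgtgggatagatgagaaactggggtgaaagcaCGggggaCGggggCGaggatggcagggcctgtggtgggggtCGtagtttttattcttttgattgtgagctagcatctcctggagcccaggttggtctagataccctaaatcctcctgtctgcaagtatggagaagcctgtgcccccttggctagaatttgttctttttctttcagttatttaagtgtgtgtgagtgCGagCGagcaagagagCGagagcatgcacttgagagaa
Its 9 CpGs together had 10.0% and 14.9% methylation in female and male B cells and 96.5% and 95.6% in female and male T cells. The most methylated single CpG in the B libraries reached 31.8%, and the least methylated one in the T libraries had 84.6%. Elsewhere in the window of *Tcf3* the called tiles were a tile in intron 3, chr10:80423001-80424000, at 63.5% and 65.2% in B cells and 90.4% and 85.7% in T cells, and a tile upstream, chr10:80443001-80444000, at 18.6% and 17.9% against 53.7% and 52.1%.

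*Ebf1* (chr11:44617317-45008091, plus strand) is the longest of the 9 genes at 391 kb and encodes a pioneer factor of the B lineage. Its promoter was nearly unmethylated everywhere, at 1.40% and 1.59% in B cells and 5.53% and 4.44% in T cells. That difference of -3.49 points passed the adjusted p of edgeR (3.35e-05) without reaching 20 points, and it was -1.50 points (0.00148) within 500 bases of the start. Of 362 tiles, 17 were lower in B cells (4.70%, beside 0.812% of all tiles) and 9 higher (2.49%, near the 2.36% of all tiles). All 26 lay within the gene body, scattered along it, as did 332 of the 362 tested tiles. Intron 6 held the centers of 8 lower and 6 higher tiles. Tested tiles were not counted by intron, here or in the genes below, so such counts give no share and may follow intron length. The largest difference was at chr11:44765001-44766000, with 39.1% and 30.6% in B cells and 92.4% and 90.8% in T cells (-56.8 points, adjusted p = 9.70e-47). A neighbor of it, chr11:44764001-44765000, was also called, at 28.1% and 21.6% against 74.7% and 72.1%. In the opposite direction chr11:44645001-44646000 had 88.8% and 91.1% in B cells and 43.9% and 53.1% in T cells (+41.4 points, adjusted p = 4.42e-25).

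The sharpest contrast of *Ebf1* was shorter than a tile. Stretches were located in the female libraries alone, as 3 or more successive CpGs that each differed by at least 30 points in one direction, and the male libraries were read afterwards. In intron 8 a stretch of 485 bases (chr11:44892010-44892494) with 8 CpGs had 10.2% in female B and 94.5% in female T cells, and the male libraries gave 13.6% and 91.7%. Others of similar size lay in intron 6 (chr11:44710175-44710223, -75.7 points in females and -65.3 in males) and intron 9 (chr11:44921928-44922059, -71.5 and -61.2). The first part of the intron 8 stretch, plus strand, chr11:44891990-44892217, is:
Ebf1 lower in B cells: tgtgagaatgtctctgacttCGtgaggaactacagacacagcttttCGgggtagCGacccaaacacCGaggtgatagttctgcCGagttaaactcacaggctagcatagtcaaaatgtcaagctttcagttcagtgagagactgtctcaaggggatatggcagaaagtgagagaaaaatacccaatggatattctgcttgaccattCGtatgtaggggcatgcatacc
At its 6 CpGs no CpG exceeded 10.0% in the B libraries, and none was under 80.8% in the T libraries. The 6 together had 3.77% and 1.89% in B cells and 95.7% and 92.9% in T cells.

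*Pax5* (chr4:44524757-44710487, minus strand) encodes the commitment factor of the lineage. Its promoter had 4.04% (95% interval 2.88 to 5.65) and 3.32% in B cells and 16.8% and 17.4% in T cells. The difference of -13.4 points passed the test (edgeR adjusted p = 1.12e-15) but not the minimum of 20 points. Within the promoter, 5 CpGs just inside the gene at chr4:44709913-44710345 had 14.5% and 15.1% in B cells and 86.6% and 95.8% in T cells. In the window of *Pax5* 11 of 210 tiles were lower in B cells (5.24%, beside 0.812% of all tiles) and 6 higher (2.86%, near the 2.36% of all tiles). All but 1 higher tile lay within the gene body, as did 176 of the 210 tested tiles. Of the 11 lower tiles 7 had their center in intron 5. The longest run of neighboring calls was in that intron, 5 tiles in a row from chr4:44667001 to 44672000. The largest difference there was at chr4:44671001-44672000, where B cells had 6.67% and 18.2% and T cells 85.2% and 77.8% (-69.1 points, adjusted p = 6.29e-48). The stretch in it (chr4:44671347-44671940) differed by -81.3 points in females and -63.7 in males. Part of it, minus strand, chr4:44671327-44671612, reads:
Pax5 lower in B cells: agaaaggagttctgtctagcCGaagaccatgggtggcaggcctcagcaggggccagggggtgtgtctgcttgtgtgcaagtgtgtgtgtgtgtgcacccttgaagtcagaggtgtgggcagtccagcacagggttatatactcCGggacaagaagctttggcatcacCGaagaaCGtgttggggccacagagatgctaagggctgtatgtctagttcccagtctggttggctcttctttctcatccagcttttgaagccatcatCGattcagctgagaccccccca
Its 5 CpGs had 2.56% and 14.0% methylation in female and male B cells and 82.4% and 77.1% in female and male T cells. The male B library was thus the higher of the 2 B libraries, with 27.3% at its most methylated CpG. The least methylated CpG had 43.8% in female T cells and 23.5% in male T cells, so single CpGs of the cell types overlapped.

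Within the same intron 5 of *Pax5* a CpG-dense tile went the other way. The tile chr4:44664001-44665000 holds 84 CpGs and had 36.2% and 38% in B cells against 4.36% and 3.63% in T cells (+33.1 points, adjusted p = 4.58e-43). A CpG-rich segment that stayed nearly unmethylated in T cells was therefore partly methylated in B cells, near the block that was lower in B cells. A tile in intron 8, chr4:44558001-44559000 with 38 CpGs, had a similar pattern, at 50% and 44.3% in B cells and 14.1% and 15.4% in T cells. Of the 6 *Pax5* tiles higher in B cells, 3 were under 25% in both T libraries.

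**Figure D2:**
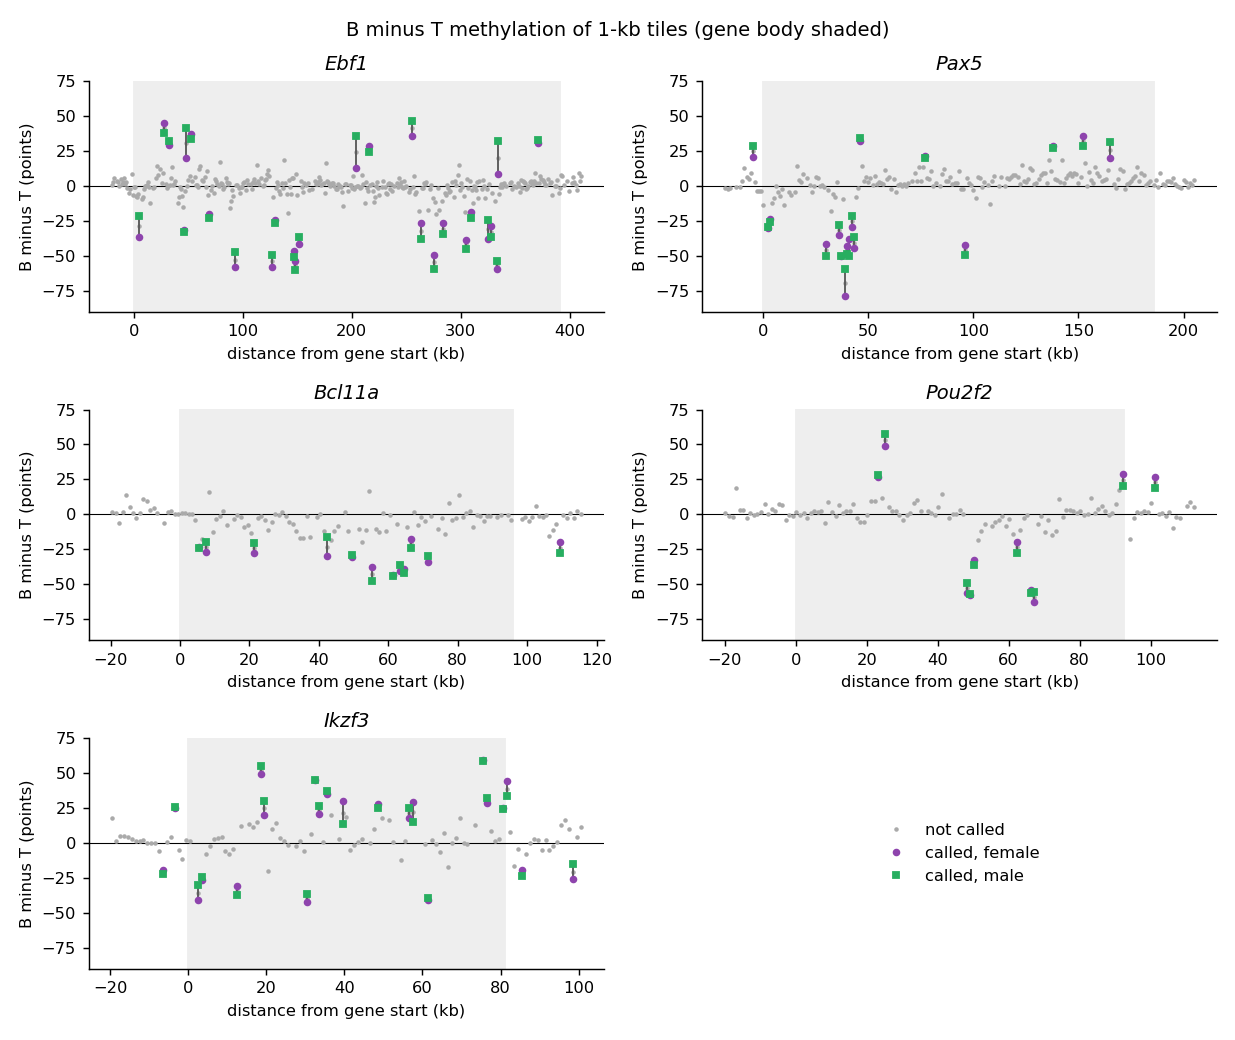
Difference B minus T in percentage points (y axis) for each 1-kb tile against its distance from the gene start in kb (x axis, gene body shaded) in the 5 longest genes. Grey points are tiles not called and show the mean difference, and called tiles show the female (purple circles) and male (green squares) difference joined by a line. Both sexes lie on the same side of 0 in every called tile, the lower tiles of *Pax5* are bunched in intron 5, and *Bcl11a* has no called tile above 0.

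*Pou2f2* (chr7:25087344-25179726, minus strand) encodes OCT2. Its annotated start lies 47214 bases upstream of the first start of its protein-coding transcripts, at position 25132512, and both places were nearly unmethylated in the 4 libraries. The promoter at the gene start had 3.99% and 3.97% in B cells and 3.26% and 3.29% in T cells, and the 1 kb around position 25132512 had 0% and 2.71% against 1.81% and 0.997%. Just inside that coding start, 3 neighboring tiles in intron 1 were lower in B cells. In chr7:25130001-25131000 B cells had 7.43% and 10.7% and T cells 65.1% and 67.7%. The largest difference of the gene was in intron 5, at chr7:25112001-25113000, with 30.3% and 36.5% in B cells and 93.0% and 91.8% in T cells (-59.0 points, edgeR adjusted p = 2.62e-65). The tile chr7:25154001-25155000, between the 2 starts, was the reverse, with 80% and 83.6% in B cells and 31.4% and 26.2% in T cells (+53.0 points, adjusted p = 1.16e-24). From the intron 5 stretch of 28 CpGs (chr7:25112491-25113360), the part chr7:25112758-25113047 on the minus strand is:
Pou2f2 lower in B cells: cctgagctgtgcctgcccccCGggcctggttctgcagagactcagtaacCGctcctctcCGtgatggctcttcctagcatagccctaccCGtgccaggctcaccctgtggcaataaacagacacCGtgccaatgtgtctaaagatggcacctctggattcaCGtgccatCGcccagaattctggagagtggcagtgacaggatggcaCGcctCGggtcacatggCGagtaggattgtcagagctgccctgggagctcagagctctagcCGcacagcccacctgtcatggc
Here the 11 CpGs were not uniformly low in B cells, since single CpGs ranged from 0% to 65.4% in the B libraries, whereas none was under 83.3% in the T libraries. Pooled, they had 30.8% and 35.4% in B cells and 93.1% and 95.7% in T cells.

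*Pou2af1* (chr9:51213708-51240080, plus strand) encodes the coactivator that OCT proteins recruit in B cells. Its promoter was 1 of 2 that were called among the 9, both lower in B cells, beside 0.41% of 20501 promoters called lower and 0.956% called higher. It had 6.77% (5.14 to 8.86) and 6.90% in female and male B cells and 38.1% and 50.5% in female and male T cells, a difference of -37.5 points (edgeR adjusted p = 4.54e-40). Both T libraries thus lay far above both B libraries, although they differed between themselves. Without the male B library the adjusted p was 0.0569 and without the male T library 0.0587, at -37.6 and -31.3 points. Within 500 bases of the start the difference was -22.0 points (adjusted p = 1.30e-23), and with limma the adjusted p of the whole promoter was 0.0112. Within the promoter the difference was largest upstream of the start, where 10 CpGs at chr9:51212986-51213272 were all but free of methylation in B cells:
Pou2af1 lower in B cells: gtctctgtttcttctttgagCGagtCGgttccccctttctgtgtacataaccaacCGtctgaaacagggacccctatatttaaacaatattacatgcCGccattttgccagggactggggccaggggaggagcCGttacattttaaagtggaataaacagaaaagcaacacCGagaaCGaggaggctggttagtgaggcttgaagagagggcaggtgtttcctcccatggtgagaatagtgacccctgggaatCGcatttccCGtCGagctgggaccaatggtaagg
On this plus strand segment B cells had 1.08% and 0% methylation, and T cells 81.1% and 85%. The most methylated CpG of any B library stood at 4.55% and the least methylated one of any T library at 50%. Around it, 3 neighboring tiles from chr9:51211001 to 51214000 were called. In intron 1 a stretch of 7 CpGs (chr9:51225145-51226001) differed by -85.3 points in females and -76.8 in males. The largest tile difference of *Pou2af1* was within intron 1, at chr9:51225001-51226000, with 30.1% and 38.2% in B cells and 96.3% and 91.8% in T cells (-59.9 points, adjusted p = 7.45e-44). Its last exon had the single tile higher in B cells, chr9:51238001-51239000, at 78.4% and 78.8% against 48.1% and 46.8% (+31.2 points, adjusted p = 3.53e-11), a call that was lost under limma (adjusted p = 0.0597).

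*Spib* (chr7:44525993-44532071, minus strand) encodes an ETS factor related to PU.1 and is the shortest of the 9 genes at 6.08 kb. In its gene body 6 of 8 tiles were lower in B cells. Its promoter had 21.9% (18.6 to 25.6) and 29.5% in B cells and 70.9% and 66.1% in T cells, a difference of -42.8 points (edgeR adjusted p = 4.67e-29). That call was lost without the female T library (-40.5 points, adjusted p = 0.12) and without the male T library (-45.2 points, adjusted p = 0.0949). In a row 6 tiles were called, chr7:44529001 to 44535000, and they reach past the gene start into *Pold1*, the neighboring gene of a DNA polymerase subunit. Within the gene the largest difference was at chr7:44530001-44531000, with 11.3% and 10.3% in B cells and 83.3% and 84.9% in T cells (-73.3 points, adjusted p = 4.35e-53). Part of it, minus strand, chr7:44530317-44530499, in intron 2, reads:
Spib lower in B cells: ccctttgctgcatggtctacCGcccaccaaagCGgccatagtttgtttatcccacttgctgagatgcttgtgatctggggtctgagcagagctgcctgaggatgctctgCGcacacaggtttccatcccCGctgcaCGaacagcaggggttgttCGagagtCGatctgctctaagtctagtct
Its 7 CpGs had 12.4% and 12.4% in B cells and 83.0% and 86.6% in T cells. Upstream of the start, in *Pold1*, a stretch of 2197 bases with 69 CpGs (chr7:44532487-44534683) had 20.2% and 25.7% in B cells and 83.8% and 83.8% in T cells. The same neighbor held the 2 tiles of the window that were higher in B cells, of which chr7:44543001-44544000 had 88.8% and 86.3% against 60.1% and 60% (+27.5 points, adjusted p = 2.65e-16).

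*Irf8* (chr8:120736358-120756694, plus strand) encodes an interferon regulatory factor of B cells, dendritic cells and macrophages. Its promoter was CpG-rich, with 97 CpGs, and low in the 4 libraries, at 7.01% and 9.34% in B cells and 16.2% and 12.8% in T cells. The difference of -6.36 points passed the adjusted p of edgeR (0.00463) but not 20 points. It was -0.23 points within 500 bases of the start (adjusted p = 0.693), and under limma its adjusted p was 0.158. In the gene body 11 of 21 tiles were called lower in B cells. From chr8:120742001 to 120749000, 7 neighboring tiles were called lower in B cells, and the largest tile difference of the 9 genes was among them. It lay at chr8:120747001-120748000, with 4.6% and 5.43% in B cells and 95.7% and 90.8% in T cells (-88.2 points, adjusted p = 1.07e-86). With limma its adjusted p was 0.00577. The stretch centered in intron 4 (chr8:120744505-120748173) spanned 3669 bases and 50 CpGs, the longest of the 9 genes in bases. Female libraries had 15.6% in B and 91.0% in T cells there, and male libraries 14.0% and 89.4%.

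The contrast of *Irf8* went on past the 3′ end of the gene. Of the 17 tiles lower in B cells 4 lay downstream, and chr8:120757001-120758000 had 15.1% and 10.3% in B cells and 93.8% and 94.2% in T cells (-81.3 points, edgeR adjusted p = 3.30e-97). A further tile, chr8:120768001-120769000, 32142 bases from the gene start, had 28.4% and 32.0% against 75.1% and 75.7%. The gene model *Gm20388* spans the whole window, so that no tile here belongs to *Irf8* alone in the annotation. The plus strand segment chr8:120757225-120757466, just behind the gene, is:
Irf8 lower in B cells: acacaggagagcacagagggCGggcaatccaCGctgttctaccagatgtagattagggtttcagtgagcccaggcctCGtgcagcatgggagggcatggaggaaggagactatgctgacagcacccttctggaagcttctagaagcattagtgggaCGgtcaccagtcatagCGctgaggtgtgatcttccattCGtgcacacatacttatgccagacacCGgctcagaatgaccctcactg
Its 7 CpGs had 17.3% and 14.9% in B cells and 94.0% and 93.3% in T cells. Single CpGs overlapped, with up to 64.7% in female B cells and down to 60% in male T cells. Both directions were found upstream of *Irf8*. The tile chr8:120728001-120729000 was higher in B cells, at 94.8% and 93.4% against 31.1% and 36.3% (+60.4 points, adjusted p = 9.41e-47), and chr8:120725001-120726000 was lower, at 5.54% and 5.08% against 21.4% and 35.7%. In intron 6 chr8:120751001-120752000 was higher again, at 81.8% and 73.1% against 34.2% and 41.6%.

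**Figure D3:**
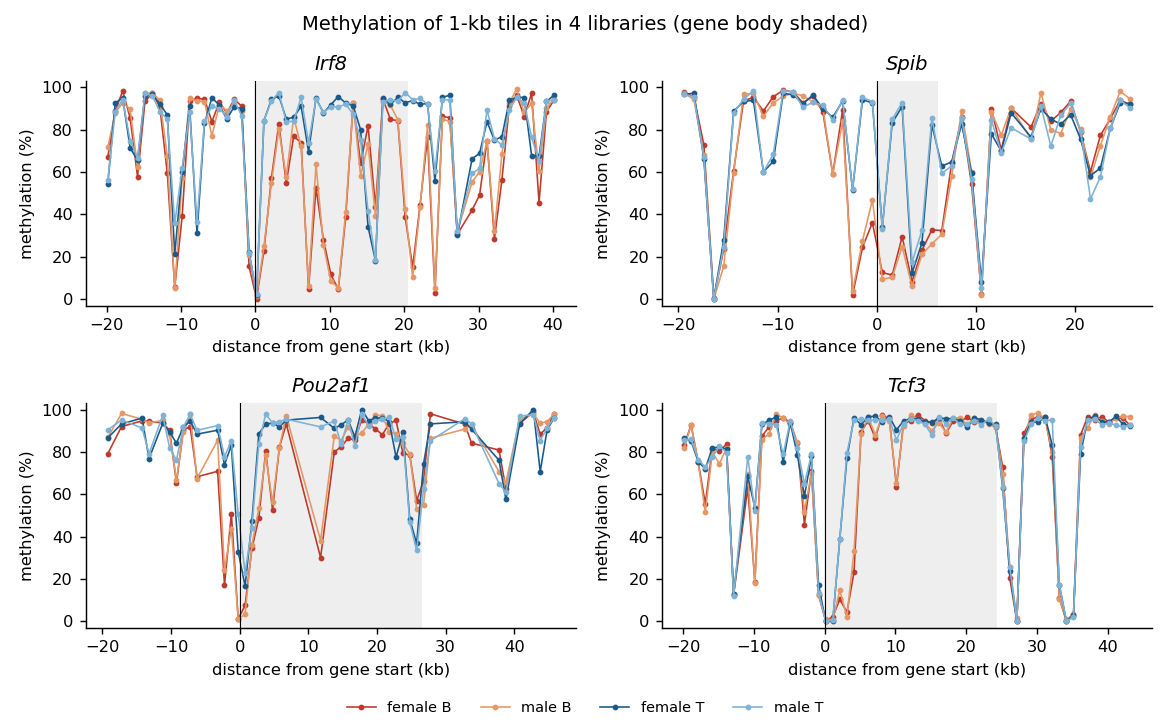
Methylation level in percent (y axis) of 1-kb tiles against distance from the gene start in kb (x axis, gene body shaded) for the 4 shortest genes, in female B (red), male B (orange), female T (dark blue) and male T cells (light blue). The 2 libraries of a cell type run close together, and B cells dip below T cells in 11 of 21 gene body tiles of *Irf8* and 6 of 8 of *Spib*, at the start and in intron 1 of *Pou2af1*, and in a block of 3 tiles and a further tile in intron 3 of *Tcf3*.

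*Bcl11a* (chr11:24078056-24174123, plus strand) encodes a zinc finger repressor needed for early B cells. Its promoter was unmethylated, at 0.217% and 1.31% in B cells and 0.195% and 0.513% in T cells, and lay within a low-methylation domain of 8607 to 9721 bases in every library. In the window of *Bcl11a* 12 of 126 tiles were lower in B cells, 9 of them centered in intron 2. Their median difference of 26.9 points was the smallest of the 9 genes among tiles lower in B cells. The largest was at chr11:24139001-24140000, with 26.3% and 25.8% in B cells and 69.9% and 69.8% in T cells (-43.8 points, edgeR adjusted p = 1.21e-16). Near it, chr11:24142001-24143000 had 21.4% and 21.7% against 60.5% and 63.6%. Shorter stretches in intron 2 were sharper, such as chr11:24133615-24133820 with 3 CpGs at 6.67% and 13.6% in B cells and 83.3% and 84.8% in T cells.

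*Ikzf3* (chr11:98464902-98546031, minus strand) encodes Aiolos, which is made in both lineages. Its promoter was low, at 2.31% and 2.39% in B cells and 0.974% and 0.599% in T cells, a difference of +1.57 points that passed the adjusted p of edgeR (0.00349). Of its 22 called tiles 14 were higher in B cells and 8 lower. Of the higher tiles 13 lay along the gene body and 1 upstream, with 5 centered in intron 3, 2 in intron 7 and 2 in intron 1. The largest difference was in intron 7, at chr11:98470001-98471000, with 63.1% and 63.2% in B cells and 3.85% and 4.36% in T cells (+59.0 points, adjusted p = 6.85e-67). A segment of it, minus strand, chr11:98470084-98470376, reads:
Ikzf3 higher in B cells: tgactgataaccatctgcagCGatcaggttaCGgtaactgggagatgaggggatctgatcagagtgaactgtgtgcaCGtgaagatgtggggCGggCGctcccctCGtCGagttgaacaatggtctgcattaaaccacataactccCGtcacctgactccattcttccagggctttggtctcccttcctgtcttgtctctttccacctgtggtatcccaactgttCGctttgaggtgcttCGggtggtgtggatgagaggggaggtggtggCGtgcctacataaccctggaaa
Its 11 CpGs had 70.5% and 69.2% in B cells and 0% and 1.30% in T cells. The 0% rests on 0 of 177 reads, for which the 95% interval reaches 2.12%. Other tiles were also nearly unmethylated in T cells alone, such as chr11:98513001-98514000 at 51.3% and 49.5% against 6.55% and 4.23%. The tiles lower in B cells included chr11:98484001-98485000 at 49.8% and 50.5% against 90.6% and 89.7% (-40.0 points, adjusted p = 1.07e-23) and 2 neighbors near the gene start, chr11:98542001 to 98544000. Tiles of both directions thus occurred in *Ikzf3*, also within the same introns 1 and 3.

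**Figure D4:**
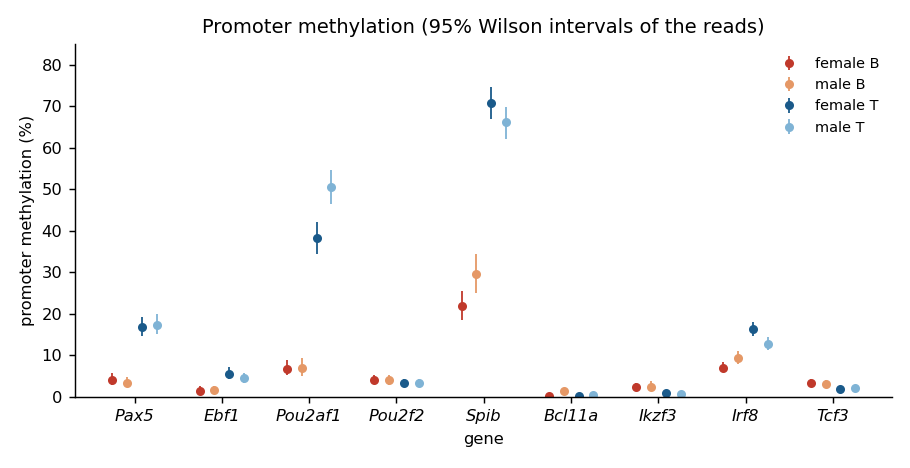
Methylation level in percent (y axis) of each gene's promoter, the start with 1 kb upstream and downstream, (x axis) in female B (red), male B (orange), female T (dark blue) and male T cells (light blue), with vertical lines for 95% Wilson intervals of the reads. *Pou2af1* and *Spib* separate the cell types most, *Pax5* less, and the other promoters lie below 17% in each library.

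At 7 of 9 promoters, then, B and T cells did not pass the call, and 5 of these were under 6% in the 4 libraries. The 4 that passed the adjusted p of edgeR without 20 points did not hold it throughout when 1 library was left out, with adjusted p from 0.0313 to 0.111 for *Pax5*, 0.0729 to 0.249 for *Ebf1*, 0.103 to 0.312 for *Ikzf3* and 0.195 to 0.515 for *Irf8*. Other annotated starts of the 9 genes were read in 1 kb around each, with no test. Beside the second start of *Tcf3*, a start inside *Irf8* (position 120738639, transcript Irf8-205) had 58.3% and 59.8% in B cells and 93.4% and 94.2% in T cells. The second start of *Spib* (position 44531276) had 5.06% and 2.94% against 23.9% and 26.8%. Starts deep in the bodies of *Pax5* (position 44645723), *Pou2af1* (51233143) and *Tcf3* (80421860) were methylated to more than 86% in every library, in both cell types.

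The low-methylation domain at the gene start was measured in each library as the run of CpGs whose level over 5 successive CpGs was under 25%. It was wider in both B libraries than in both T libraries for 7 of the 9 genes and narrower for 2, beside 10.8% and 32.8% of 14063 protein-coding genes with a domain in all 4 libraries. At a level of 15% it was wider for 5 genes, beside 10.1% of genes, and narrower for 0, beside 32.9%. With 3 successive CpGs it was wider for 7, beside 10.5%, and narrower for 0, beside 28.7%. Single widths moved with the definition. For *Irf8* the domain spanned 1218 and 1209 bases in B cells and 1105 in either T library. For *Pou2f2* it spanned 3853 and 2116 bases in B cells and 2049 and 2004 in T cells. For *Pou2af1* it spanned 1452 and 1697 bases in B cells and 664 and 881 in T cells. For *Tcf3* it spanned 4887 bases in either B library and 2545 and 2511 in T cells, reaching 4136 bases into the gene in B cells and 1760 in T cells. The *Tcf3* difference of 2359 bases depended on the definition and came to 111.5 bases under a level of 15% and 426.5 bases over 3 successive CpGs. In *Pax5* and *Ikzf3* the domain was narrower in B cells, 4362 and 4581 bases against 6158 and 6237 for *Pax5*. The *Pax5* run held the start in both B libraries but lay 182 bases upstream of it in either T library. With 15% the *Pax5* difference turned to 2002.5 bases wider in B cells and with 3 CpGs to 2703.5 bases wider. The domain of *Bcl11a*, wider in B cells by 1108.5 bases, was 870 bases narrower with 15%, and that of *Spib*, wider by 2086 bases, was 55 bases narrower with 3 CpGs.

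Over the 9 windows 84 stretches lower in B cells were located in the female libraries, or 5.25 per 1000 CpGs, against 0.747 per 1000 CpGs of the genome. Those higher in B cells numbered 39, or 2.44 per 1000 CpGs against 1.76. The male libraries, which had no part in locating them, moved in the same direction in 84 of 84 and 39 of 39 stretches, and by at least 30 points in 78 and 30. In the genome 98.3% of lower and 99.1% of higher stretches had the same direction in males, and 83.6% of lower and 85.9% of higher stretches reached 30 points in males. The median difference was -58.8 points in females and -56.4 in males for the lower stretches, and +53.8 and +44.5 for the higher ones. Most were short, with medians of 213 and 236 bases and 5 CpGs. *Irf8* had 173 CpGs inside lower stretches and *Spib* 127, and *Ikzf3* 126 and *Pax5* 107 inside higher ones. With stretches located in the male libraries instead, 85 were lower and 40 higher in B cells.

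**Figure D5:**
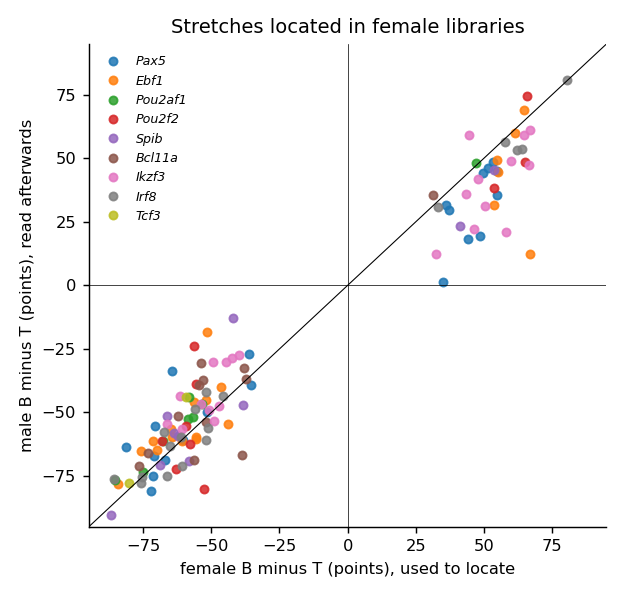
Difference B minus T in percentage points of each stretch in the female libraries, which located it (x axis), and in the male libraries (y axis), colored by gene, with the line of equality. The 84 stretches lower and 39 higher in B cells fall at the lower left and the upper right, and 1 *Pax5* stretch lies near 0 in males.

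The CpG density of called tiles was compared with no test. Tiles higher in B cells held a median of 15 CpGs per kb, with 30% at 20 or more, and those lower in B cells a median of 12 with 12.9%. All 1150 tested tiles had a median of 11 with 14.7%. Over the genome the order was the opposite, with a median of 9 and 5.06% in higher tiles and of 10 and 6.65% in lower tiles. Of the 40 higher tiles 10 were under 25% in both T libraries, and of the 93 lower tiles 26 were under 25% in both B libraries. In the genome these were 6273 of 36059 higher and 1653 of 12428 lower tiles. No lower tile of the 9 windows was under 25% in both T libraries, and 7 in the genome were. A lower call needs B cells at least 20 points below T cells, so the rule itself leaves little room for such tiles.

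Binding motifs were sought on both strands in windows of equal width around each stretch and each tested region, as a description. The E box CAGGTG was present in 22 of 84 windows lower in B cells (26.2%), beside 8 of 39 higher in B cells (20.5%), 22% of the tested regions of the 9 windows and 19.7% of those of the genome. The palindromic EBF1 motif was in 0 of 84 lower and 1 of 39 higher (2.56%), beside 0.625% of all regions, and the octamer ATGCAAAT in 1 of 84 (1.19%) beside 2.2%. GAGGAAGT, an ETS motif of PU.1 and SPI-B, was in 2 of 84 lower (2.38%) and 3 of 39 higher (7.69%), beside 1.39% of the tested regions of the 9 windows and 1.88% of all. Among the lower windows, an ETS-IRF composite motif was in 2 (2.38%) beside 3.04% of all regions, and TGGGAAT of the Ikaros family in 3 (3.57%) beside 6.13%. No test was made on these counts, and they include no more than 22 windows for any motif. In the printed sequences CAGGTG occurs in *Pou2af1*, *Pou2f2* and *Ikzf3*, and TGGGAAT in *Pou2af1*.

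No tile of the 9 windows was called between females and males. The edgeR test called 0 of 1150 tiles, beside 0.00134% of autosomal tiles, with 69 at an unadjusted p under 0.05 and a smallest adjusted p of 0.139. A test of the B minus T difference in females against that in males called 0 of 1150, beside 0.000134% of autosomal tiles, with 54 at an unadjusted p under 0.05 and a smallest adjusted p of 0.823. Limma called 0 in both. Averaged over both cell types the largest difference between the sexes was 15 points, below the minimum for a call. Within a cell type the female and male libraries differed by up to 19.8 points in B cells and 23.8 in T cells.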

How the data were processed

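Per the labels and deposited files, the authors supplied for every CpG with at least 5 reads a methylation level as a fraction (0 to 1) and a read count, strands joined. The submitters' processing notes name Trim Galore, FastQC, Bismark 0.13.1 and mm10. Fractions had been rounded up to 3 decimals, and methylated reads were recovered as whole numbers (100% of levels matched). Reads at CpGs shared by the 4 libraries were summed in 1-kb tiles and promoters (GENCODE M21) with at least 5 CpGs and 20 reads in every library. The edgeR 4.0.16 quasi-likelihood test (R 4.3.3) had terms for library, methylation, cell type and sex, with 1 residual degree of freedom and a dispersion shared by all regions (common dispersion 0.00747 for tiles and 0.0107 for promoters), so no region was judged by its own spread. P-values were adjusted over all tiles, or over all promoters. Limma 3.58.1 on log2 ratios of methylated to unmethylated reads, each plus 0.5, was an alternative. Scripts were tested on simulated data. Each printed segment holds the most CpGs that fit 300 bases, without untranslated region, in the stretch of largest female difference that allowed 5 CpGs. Each gene is given with its promoter, its counts, its largest called tile per direction and up to 3 stretches, and further tiles and starts were chosen after their values were seen. The genes, lists, motifs and tests were chosen with earlier results of these data known.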

Additional observations from a re-analysis of the deposited data

Results flagged for a closer look

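At 7 of 19 annotated transcript starts the female and the male libraries moved in opposite directions between B and T cells. The difference between the sexes was not tested at these starts. No interval was made for it, and combining 4 levels makes it less precise than the single levels given beside it. The values below are the female B minus T difference less the male one, in points. It was 10.8 at the start of *Pou2f2* at position 25120858, where B minus T was +3.13 points in females and -7.70 in males, with single levels known to within 6.91 points. At position 51233143 in *Pou2af1* it was -8.66, with levels known to within 5.36 points, and at 44645723 in *Pax5* it was -6.05, with 4.12 points. The coding start of *Pou2f2* at position 25132512 gave -3.52, with 1.63 points. At starts that were nearly unmethylated in the 4 libraries the values were -1.13 for the start of *Bcl11a* at position 24078056 (1.52 points), 0.602 for its start at 24080670 (1.22 points), and -1.14 for the gene start of *Irf8* at 120736358 (0.891 points). Male B was the highest of the 4 libraries at 24078056 (2.11%), 120736358 (1.39%) and 25132512 (2.71%), and the lowest at 24080670 (0%). The part of the higher mitochondrial level of that library here was not tested.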

How the results depend on the processing

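Among the 9 genes the largest called tiles kept their direction in every alternative. In fits to all 4 libraries the only call lost was the *Pou2af1* tile higher in B cells under limma (adjusted p = 0.0597). These tiles were picked for the largest differences, so they were the least likely to lose a call. Dropping the minimum difference could not undo a call. Leaving out 1 library at a time leaves 1 library of a cell type, assumed to vary like the others, so no tile or promoter counts are given for it. Without the female B library the largest tile difference of *Irf8* was -87.8 points, beside -88.2 with all 4. Promoter calls that were lost in such fits are given with *Pou2af1* and *Spib*. With no minimum difference 181 tiles were lower (15.7% beside 2.17% of all) and 125 higher (10.9% beside 7.15%), and 5 of 9 promoters lower (55.6% beside 2.2%) and 1 higher (11.1% beside 17.7%). Limma called 65 tiles lower (5.65% beside 0.444%) and 18 higher (1.57% beside 1.56%). Of 1429 tiles of 500 bases 120 were lower (8.40% beside 1.15%) and 73 higher (5.11% beside 2.84%). Of 987 tiles without another protein-coding gene, chosen after seeing the data, 69 were lower (6.99%) and 33 higher (3.34%), with no such share taken over the genome. Because of *Gm20388* this left out all 60 tiles of *Irf8*, of which 17 were lower and 4 higher. Stretches at 20 points numbered 70 higher in B cells, beside 39 at 30 points. Those of 4 or more CpGs numbered 54 lower in B cells, beside 84 with 3 or more. In each case the direction that changed more is given. No rate over the genome was taken at these settings, so neither count has a background. Domains narrower in both B libraries fell from 2 genes to 0 under both alternatives. Widths of domains in B less T cells reversed to 2002.5 (15%) and 2703.5 bases (3 CpGs) for *Pax5*, -870.0 bases (15%) for *Bcl11a* and -55.0 bases (3 CpGs) for *Spib*. The cause of these changes was not tested. No paired analysis was possible because the groups share no replicate numbers and each has 1 file. With a median of 14 to 17 reads at a CpG, levels of single CpGs are imprecise.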
